A study of Homo sapiens with 36 samples.

Results

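The genes described here encode the proteins of the mitochondrial ribosome. They were taken as every gene whose annotated symbol begins with MRPL (large subunit) or MRPS (small subunit) followed by a number, and each was read on its brightest probe set, by mean log2 signal over all arrays. On these arrays 64 probe sets answered to 51 such genes, 31 of them MRPL and 20 MRPS, out of 11963 genes measured by probe sets that name a single gene. Probe sets were neither dropped nor kept on their level, so all 51 genes entered every comparison.

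The mitochondrial ribosome reads the few messenger RNAs made from mitochondrial DNA, which code for core subunits of the respiratory chain and of ATP synthase. Its RNAs come from the mitochondrial genome, whereas all of its proteins are encoded in the nucleus, translated in the cytosol and imported. Some of these proteins descend from bacterial ribosomal proteins, among them proteins that lie at the decoding centre, the peptidyl transferase region and the exit tunnel. Others have no bacterial counterpart and were added in the mitochondrial lineage. The proteins of MRPS18A and MRPS30 carry small subunit names but sit in the large subunit.

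RNA came from U2OS ER-HA-E2F1 cells, a human osteosarcoma line infected with the retrovirus pBabe-Puro-ER-HA-E2F1 and selected with puromycin, in which 4-hydroxytamoxifen (OHT) switches on an HA-tagged E2F1 fused to the estrogen receptor ligand-binding domain. All cells carried this transgene, and all were transfected with an siRNA: negative controls from Dharmacon and Sigma, and siRNAs against NFYB from Ambion and Dharmacon. NFYB is the B subunit of NF-Y, a trimeric factor that binds the CCAAT box. Cells were starved of serum for 24 h and then exposed to 80 nM OHT, with harvests at 0, 4 and 8 h. Each of the 12 conditions had 3 biological replicates, giving 36 arrays. Both siRNAs of an arm were pooled at each time, leaving 6 arrays per arm and time. No array series without OHT or without transfection was used here, so OHT, E2F1 activity and the further hours of starvation cannot be told apart in the time comparisons. In bulk RNA a lower signal from fewer cells of a kind and from less RNA per cell cannot be told apart either.

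NFYB itself was measured first. Its signal ran from 160.9 to 203.1 in the 6 control siRNA arrays at 0 h (median 191.5) and from 53.9 to 81.7 with NFYB siRNA (median 66.8). At 8 h the control arrays lay between 579 and 717.4 and the NFYB siRNA arrays between 74.1 and 187.4. The arms did not overlap at either time, and the log2 change with NFYB siRNA was -1.50 at 0 h (limma adjusted p = 1.38e-06) and -2.44 at 8 h (adjusted p = 2.43e-11). Array medians lay between 100.5 and 119.7. Among markers of other lineages, 5 of 5 measured leukocyte and 5 of 5 endothelial genes had a median signal under 100, as did 5 of 6 epithelial genes (EPCAM, at 326.3, did not). Of 7 mesenchymal and osteoblast markers 3 were under 100, RUNX2 lowest, and VIM was highest at 15980.

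Promoters are shown for some of the genes on which the comparisons turned. MRPL18 and MRPS12 differed with NFYB siRNA and hold CCAAT boxes, and MRPL12 differed and holds none in the window. MRPL40 was the only member that passed as higher at 8 h of OHT. Of the 10 genes that differed with NFYB siRNA at 8 h, 8 have a window, and only MRPL18 and MRPS12 among these hold CCAAT. The MRPS12 difference was lost on the mean of all its probe sets. The genes shown therefore do not stand for the set. The sequences are those given by RefSeq for GRCh38.p14, cover up to 250 bases before the transcription start and read 5′ to 3′. Capitals mark matches to CCAAT (the NF-Y box), TTTNNCGC (an E2F site), GCGCATGC (NRF1), CCGGAAG (ETS factors such as GABP) or AAGATGGCG (YY1), on either strand.
MRPL18, chr6:159789603-159789811, plus strand: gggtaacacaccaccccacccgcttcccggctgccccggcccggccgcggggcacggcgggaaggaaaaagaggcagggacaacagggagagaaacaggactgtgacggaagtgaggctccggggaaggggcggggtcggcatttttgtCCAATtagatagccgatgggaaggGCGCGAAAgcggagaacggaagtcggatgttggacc
MRPL12, chr17:81703117-81703366, plus strand: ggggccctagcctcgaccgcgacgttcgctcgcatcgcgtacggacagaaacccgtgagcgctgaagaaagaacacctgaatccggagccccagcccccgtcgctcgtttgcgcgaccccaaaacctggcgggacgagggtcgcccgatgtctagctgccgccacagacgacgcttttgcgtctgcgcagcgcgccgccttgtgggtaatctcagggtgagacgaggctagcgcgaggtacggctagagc
MRPS12, chr19:38930764-38930943, plus strand: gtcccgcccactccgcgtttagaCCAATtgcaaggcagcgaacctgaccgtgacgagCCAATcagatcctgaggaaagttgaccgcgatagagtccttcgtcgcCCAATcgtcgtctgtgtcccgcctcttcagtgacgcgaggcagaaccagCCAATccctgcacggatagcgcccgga
MRPL40, chr22:19432295-19432544, plus strand: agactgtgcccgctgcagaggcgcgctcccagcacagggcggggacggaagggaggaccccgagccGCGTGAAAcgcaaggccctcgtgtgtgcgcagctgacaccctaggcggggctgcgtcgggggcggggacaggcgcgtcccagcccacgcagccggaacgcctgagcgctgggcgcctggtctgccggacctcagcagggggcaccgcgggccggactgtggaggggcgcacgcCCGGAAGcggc

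In MRPL18 the CCAAT box lay at -60 and the E2F match at -36 from the start. MRPS12 held 4 CCAAT boxes, at -157, -123, -76 and -27. MRPL40 held an E2F match at -184 and an ETS match at -11. Windows from 250 bases before to 50 bases after a start were found for 45 of the 51 genes, 57 windows in all. CCAAT was present in 18 of the 57 (31.6%), against 34.6% of all 35116 windows of that length. The E2F motif was in 10 (17.5%, against 6.89%), the NRF1 motif in 5 (8.77%, against 3.05%), the ETS motif in 21 (36.8%, against 10.3%) and the YY1 motif in 8 (14.04%, against 1.75%). The closing AAG of the ETS motif is also the start of the YY1 motif, so those matches can overlap. A match is a description of the letters in the window, not evidence of binding.

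The first comparison asked how these genes moved after OHT in cells with control siRNA. Most of them fell. At 8 h, 43 of the 51 genes were lower than at 0 h and 1, MRPL40, was higher (limma, adjusted p under 0.05), where the same call took in 34.3% of all 11963 genes as lower and 21.1% as higher. The median log2 change was -0.59 over the 51 genes and -0.16 over all genes. At 4 h, 41 genes were already lower and 1 was higher, against 27.8% and 17% of all genes, with a median of -0.40 (all genes -0.14). The median change from 4 h to 8 h was -0.19. Over the same arrays the ratio of 3′ to 5′ ACTB signal, a sign of RNA integrity and labelling, was 3.46 ± 0.49, 3.12 ± 0.29 and 2.91 ± 0.30 (SD, n = 6) at 0, 4 and 8 h, and the array median fell from 116.3 at 0 h to 109.8 at 8 h. Their part in the decreases was not tested.

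Among the genes that fell were conserved proteins of both subunits. MRPL18, the counterpart of bacterial L18, gave signals of 2704, 3007 and 3371 (lowest, median and highest of 6 control arrays) at 0 h. These were 1321, 1718 and 2241 at 4 h and 836, 1111 and 1371 at 8 h, so that no 8 h array reached the lowest 0 h array. The 8 h difference was 2.81-fold (log2 change -1.49, SE 0.12, adjusted p = 1.71e-13), the greatest decrease among the 51 genes in this comparison. MRPS12, the counterpart of bacterial S12 in the decoding centre, went from 1560, 1680 and 1857 at 0 h through 702, 868 and 1179 at 4 h to 530, 659 and 697 at 8 h. Its groups did not overlap either, and it was 2.71-fold lower at 8 h (log2 change -1.44, SE 0.11, adjusted p = 4.09e-14).

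MRPL16, the counterpart of bacterial L16, had the smallest adjusted p of the set in this comparison (2.25-fold lower, log2 change -1.17, SE 0.06, adjusted p = 2.52e-18). MRPL12, the mitochondrial counterpart of the L7/L12 stalk protein, also fell. Its control arrays stood at 1440, 1620 and 1772 at 0 h, 979, 1143 and 1637 at 4 h and 582, 853 and 1006 at 8 h. The 0 h and 8 h arrays did not overlap, and the 8 h level was 1.97-fold lower (log2 change -0.98, SE 0.13, adjusted p = 4.08e-08).

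Genes for proteins with no bacterial counterpart, and for the peptidyl-tRNA hydrolase of the large subunit, fell as well. MRPL58, which encodes that hydrolase, had signals of 942, 1048 and 1114 at 0 h and 401, 460 and 507 at 8 h. The groups were separate, and the gene was 2.29-fold lower (adjusted p = 6.81e-14). MRPS30, the large subunit protein with the small subunit name, had 1585, 1863 and 2403 at 0 h and 757, 875 and 925 at 8 h. It was 2.18-fold lower (adjusted p = 1.32e-12). MRPS22 was 2.04-fold lower (adjusted p = 2.2e-11). By origin, 26 of 31 conserved genes were lower (median log2 change -0.56) and 15 of 18 genes listed as mitochondria-specific, MRPS18A and MRPS30 among them, were lower and 1 higher (median -0.65). The difference between these classes was not tested.

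MRPL40, a mitochondria-specific large subunit protein, was the only one of the 51 called higher at 8 h. Its control arrays gave 3107, 3822 and 4055 at 0 h, 3665, 4039 and 4426 at 4 h and 4500, 5301 and 6230 at 8 h. All 6 arrays at 8 h lay above all 6 at 0 h, a 1.42-fold difference (log2 change 0.50, SE 0.09, adjusted p = 1.23e-05). MRPL34, the counterpart of bacterial L34, was the gene called higher at 4 h. It gave 316, 477 and 565 at 0 h and 507, 653 and 910 at 4 h, a 1.43-fold difference with overlapping arrays (adjusted p = 0.00197). At 8 h it stood at 421, 565 and 676, and the difference from 0 h did not pass (log2 change 0.26, adjusted p = 0.113). MRPS2 had the third value above 0 (log2 change 0.03, adjusted p = 0.858). The 7 genes without a call at 8 h included MRPL41 and MRPS18C, which with MRPL44 had the lowest mean signals of the set.

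The cells with NFYB siRNA were compared over the same times. At 8 h, 41 of the 51 genes were lower than at 0 h and 1 was higher (all genes: 33.7% lower and 19.6% higher). At 4 h, 34 were lower and 0 were higher (all genes: 25.5% and 15.9%). The median log2 change at 8 h was -0.50, against -0.18 over all genes. MRPS30 showed the greatest decrease here, from 1684, 2026 and 2237 at 0 h to 703, 728 and 833 at 8 h, 2.66-fold without overlap (adjusted p = 2.55e-15). MRPS12 was 2.38-fold lower (adjusted p = 1.99e-12), and MRPL18 1.82-fold lower (adjusted p = 9.04e-08). MRPL40 was again higher, 1.44-fold (log2 change 0.52, adjusted p = 7.53e-06), from 3493, 3919 and 4514 to 4558, 6080 and 6494, with no overlap.

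Between the arms, 4 of the 51 genes differed in whether the 8 h change was called. MRPL12, MRPL23 and MRPS17 were called lower with control siRNA but not with NFYB siRNA (MRPS17: log2 changes -0.24 and -0.13, adjusted p = 0.0193 and 0.252), and MRPL28 was called lower with NFYB siRNA alone (-0.36, adjusted p = 0.012, against -0.26, adjusted p = 0.062). MRPL12 stood at 1317, 1534 and 1787 at 0 h, 1039, 1459 and 1922 at 4 h and 1148, 1291 and 1486 at 8 h, with overlapping arrays and a log2 change at 8 h of -0.23 (adjusted p = 0.148). MRPL23, the counterpart of bacterial L23 at the exit tunnel, had a log2 change of -0.17 (adjusted p = 0.307), and of -0.44 with control siRNA (adjusted p = 0.00413). A missing call in an arm does not show that the arms differ. The difference between the 8 h responses of the arms was therefore tested on its own, and 0 of the 51 genes passed in limma, where 0.293% of all genes did. At an unadjusted p under 0.05 there were 5, a count that was not set against all genes and shows no difference by itself. The nearest were MRPL12 (difference of log2 changes 0.75, SE 0.18, adjusted p = 0.095) and MRPL18 (0.63, SE 0.17, adjusted p = 0.178). Modelling each siRNA and time as its own group gave 2 calls among the 51 and took in 1.71% of all genes.

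The second comparison set the NFYB siRNA arm against the control arm at each time, all genes of the set being compared on the same 6 groups. At 8 h, 10 of the 51 genes were higher with NFYB siRNA and 0 were lower (all genes: 2.71% higher and 2.57% lower). At 4 h, 6 were higher and 0 lower (1.81% and 1.77%), and at 0 h, 4 were higher and 0 lower (1.96% and 2.37%). These counts moved with the model. With each siRNA and time as its own group, 15, 24 and 23 genes were higher at 0, 4 and 8 h (all genes: 6.41%, 6.59% and 7.86%) and 1, 1 and 0 were lower (7.36%, 6.46% and 7.89%), the lower gene being MRPL48 both times. The p-values of that model rest on the spread among arrays of the same siRNA and leave out differences between siRNAs. The same holds where single siRNAs stand for an arm below. The methods' t-test with Benjamini-Hochberg adjustment called 0, 0 and 5 higher (0.41%, 0.326% and 1.25%). Median log2 differences were 0.11, 0.22 and 0.18 at 0, 4 and 8 h, against -0.002, -0.003 and -0.014 over all genes. The log2 difference was above 0 for 44, 48 and 43 of the 51 genes at these times. The comparisons at 8 h share their control arrays with the control time course.

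MRPL18 differed most at 8 h. The NFYB siRNA arrays gave 1863, 2046 and 2096 (lowest, median and highest) and the control arrays 836, 1111 and 1371. The arms were separate, by 1.87-fold (log2 difference 0.90, SE 0.12, adjusted p = 3.56e-06). At 4 h they were also separate, at 2572, 2687 and 2825 against 1321, 1718 and 2241 (1.57-fold, adjusted p = 0.000714). At 0 h the values were 3044, 3759 and 4306 against 2704, 3007 and 3371. Those groups overlapped, and the log2 difference of 0.27 did not pass (adjusted p = 0.239).

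MRPL12 followed at 8 h, with 1148, 1291 and 1486 against 582, 853 and 1006, separate and 1.61-fold higher (log2 difference 0.68, SE 0.13, adjusted p = 0.000898). No difference passed at 4 h (log2 difference 0.27, adjusted p = 0.333) or at 0 h (-0.07, adjusted p = 0.879). MRPL23 had 767, 806 and 1019 with NFYB siRNA at 8 h and 450, 566 and 652 with control siRNA. It was 1.53-fold higher without overlap (adjusted p = 0.00262), and did not pass at 4 h (log2 difference 0.26, adjusted p = 0.348) or 0 h (0.35, adjusted p = 0.145). MRPL12, MRPL18 and MRPL23 belong to the study's own list of genes changed by NFYB siRNA at 8 h, which was chosen on these arrays, so their calls are not independent evidence.

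MRPL35, the counterpart of bacterial L35, was called at all 3 times. Its signals were 1024, 1140 and 1192 with NFYB siRNA and 726, 787 and 854 with control siRNA at 8 h, 1139, 1216 and 1306 against 820, 940 and 1096 at 4 h, and 1570, 1797 and 1922 against 1245, 1464 and 1604 at 0 h. The arms were separate at 4 h and 8 h and overlapped at 0 h. The differences were 1.41-fold at 8 h (adjusted p = 8.32e-06), 1.28-fold at 4 h (adjusted p = 0.00129) and 0.28 on the log2 scale at 0 h (adjusted p = 0.013). MRPS12 was higher at 8 h, at 770, 852 and 912 against 530, 659 and 697, without overlap (1.35-fold, adjusted p = 0.0134), and at 4 h (1.36-fold, adjusted p = 0.0138). Both calls were lost on the mean of its 4 probe sets, where the 8 h log2 difference was -0.069 (adjusted p = 0.897) and that at 4 h was 0.23 (adjusted p = 0.559).

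The other 5 genes called at 8 h were closer to the controls. MRPS11, a conserved protein of the small subunit platform, was higher by 0.36 on the log2 scale (adjusted p = 0.0118). MRPL58 was higher by 0.34 (adjusted p = 0.0258), MRPL57 by 0.33 (adjusted p = 0.0101), MRPS10 by 0.30 (adjusted p = 0.0139) and MRPL39, a mitochondria-specific large subunit protein, by 0.23 (adjusted p = 0.0325). Of these, MRPS11 was the one whose arms did not overlap at 8 h. At 4 h MRPL39, MRPL57 and MRPS11 were called as well. At 0 h the 4 genes called were MRPL34 (log2 difference 0.52, adjusted p = 0.0212), MRPL20 (0.36, adjusted p = 0.0489), MRPL35 and MRPS10 (0.28, adjusted p = 0.0283). The lowest values at 8 h belonged to MRPL41 (-0.49), MRPL44 (-0.35) and MRPS30 (-0.20), none of which passed.

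Single arrays and replicate sets weighed on these counts. Leaving out a replicate number (12 arrays) left 2 to 4 of the 51 genes called at 8 h, 1 to 3 at 4 h and 0 at 0 h, all of them higher, and MRPL18 passed at 8 h in all 3 such fits. The same fits called 0.502% to 1.12% of all genes higher at 8 h, 0.376% to 0.502% at 4 h and 0.426% to 0.66% at 0 h. With any single array left out the count was 8 to 11 at 8 h, 3 to 7 at 4 h and 0 to 4 at 0 h. Those fits called 1.83% to 2.98% of all genes higher at 8 h, 1.16% to 1.96% at 4 h and 1.34% to 2.04% at 0 h. At 4 h the count among the 51 genes fell to 3 without Dharmacon control replicate 1 or without Dharmacon NFYB replicate 1. At 0 h it was 0 without Dharmacon control replicate 2, 1 without Dharmacon control replicate 1 or Dharmacon NFYB replicate 2, and 2 without Dharmacon control replicate 3, Dharmacon NFYB replicate 3 or Ambion NFYB replicate 2 or 3. The ACTB ratio moved with the arms at 8 h as well, lying between 2.55 and 3.32 in control and between 3.12 and 4.06 in NFYB siRNA arrays. The same ratio for GAPDH lay between 0.935 and 1.21 on all arrays. The part of the ACTB shift in the 8 h result was not tested.

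**Figure D1:**
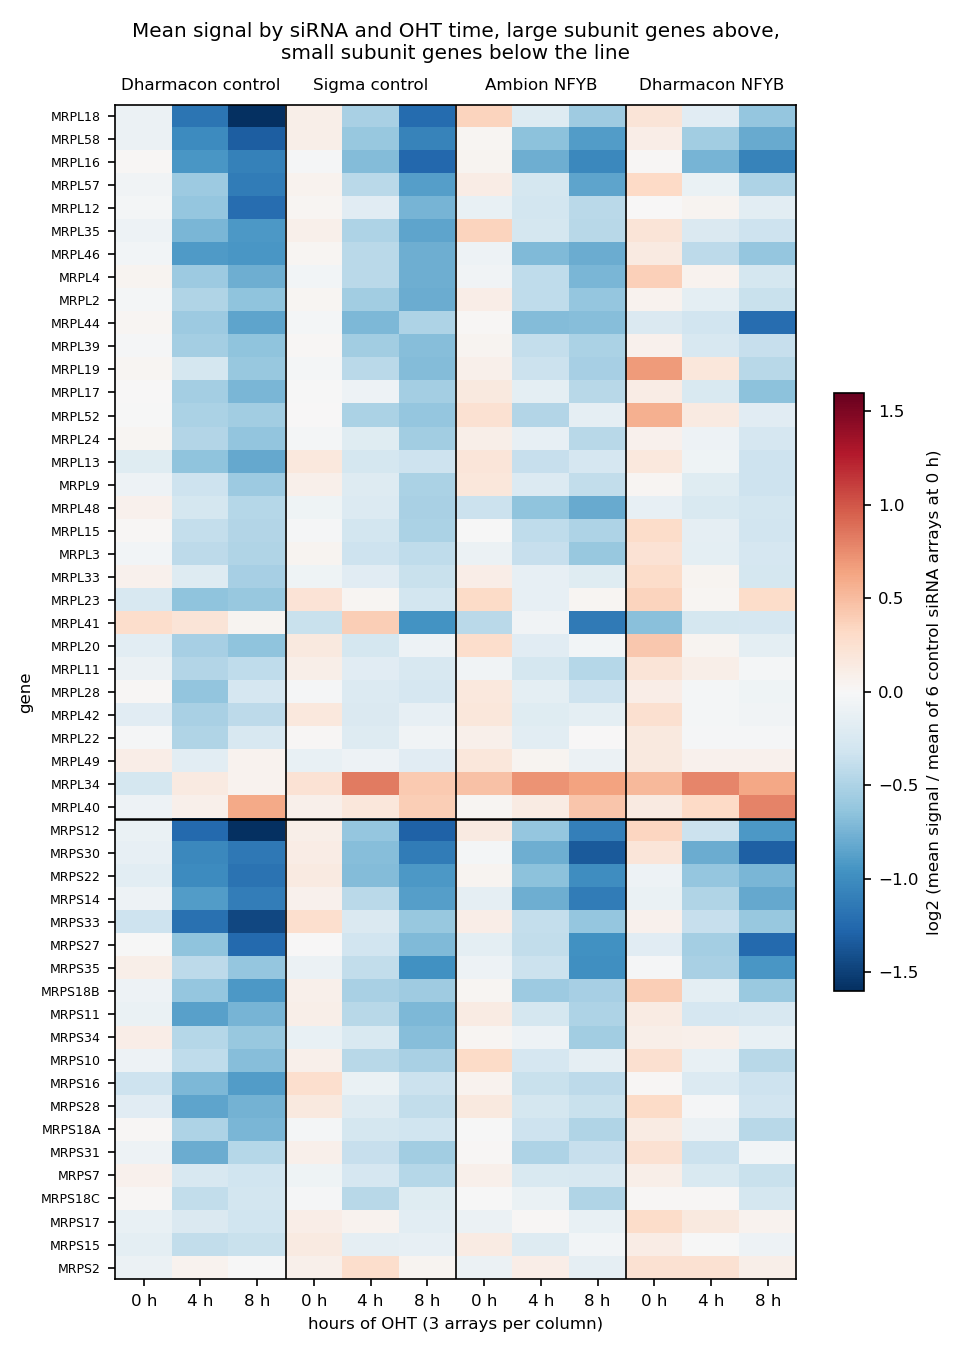
Log2 of the mean signal under each siRNA and time (3 arrays) over the mean of the 6 control siRNA arrays at 0 h, for the 51 genes, with MRPL genes above the line and MRPS genes below. Most genes fall from 0 h to 8 h under every siRNA, and the Dharmacon control columns are the lowest at 4 h for 39 of the 51 genes. The order of the siRNAs was not taken over all genes.

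The 4 siRNAs were then compared individually, in a model with each siRNA and time as its own group of 3 arrays. The controls differed from each other. Over the 3 times, 27 of the 51 genes were higher with the Sigma than with the Dharmacon control and 0 were lower (all genes: 18.9% higher and 11.8% lower), with a median log2 difference of 0.17 (all genes 0.07). The Dharmacon control gave the lowest mean signal of the 4 siRNAs for 28 of the 51 genes at 0 h, 39 at 4 h and 29 at 8 h. That ranking was not made over all genes, so it is not read as particular to this set. Array medians at 8 h were also lower with the Dharmacon control, from 103.4 to 106.5, than with the Sigma control, from 112.3 to 115.4. The part of the array medians in the difference was not tested.

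MRPS33, a mitochondria-specific small subunit protein, differed most between the controls. At 0 h its signals were 1003, 792 and 1124 with the Dharmacon control and 1348, 1495 and 1570 with the Sigma control. At 4 h they were 507, 518 and 576 against 1062, 1033 and 1039, and at 8 h 421, 440 and 470 against 836, 775 and 794. The controls were separate at each time, and over the 3 times the Sigma control was 1.75-fold higher (adjusted p = 1.39e-12). At 8 h the Ambion NFYB siRNA gave 780, 768 and 830 and the Dharmacon NFYB siRNA 819, 795 and 793, within or beside the range of the Sigma control. Next by size of the difference were MRPS16 (log2 difference 0.59, adjusted p = 1.7e-12), MRPL34 (0.53, adjusted p = 8.18e-08), MRPL23 (0.48, adjusted p = 4.61e-08), MRPL18 (0.46, adjusted p = 7.03e-09) and MRPS28 (0.45, adjusted p = 1.75e-09).

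The siRNAs against NFYB differed too. With the Dharmacon siRNA 18 genes were higher than with the Ambion siRNA and 0 lower (all genes: 8.93% and 12%), with a median log2 difference of 0.11 (all genes -0.005). The 5 smallest adjusted p-values belonged to MRPL15 (log2 difference 0.25, adjusted p = 3.61e-07), MRPL3 (0.29), MRPL48 (0.38), MRPL57 (0.24) and MRPL11 (0.36). The Dharmacon NFYB siRNA gave the highest mean signal of the 4 siRNAs for 28, 38 and 31 of the 51 genes at 0, 4 and 8 h. All genes were not ranked in this way, so these counts are not read as particular to the set either. NFYB itself was lower with the Dharmacon NFYB siRNA, by a log2 difference from the controls of -2.84 at 8 h, against -2.03 with the Ambion siRNA.

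The count of genes called for NFYB siRNA therefore moved with the reference. Against the Dharmacon control alone, 19, 30 and 23 of the 51 genes were higher at 0, 4 and 8 h (all genes: 8.01%, 9.4% and 8.79%). Against the Sigma control alone, 5, 5 and 12 were higher (all genes: 6.31%, 5.08% and 6.38%). The median log2 difference at 4 h was 0.34 against the Dharmacon control and 0.06 against the Sigma control. By siRNA against both controls, 6, 7 and 13 were higher with the Ambion siRNA (all genes: 4.41%, 3.97% and 4.64%) and 17, 30 and 26 with the Dharmacon siRNA (all genes: 7.3%, 7.35% and 9.07%). Few genes were lower. Against the Dharmacon control the counts were 1, 0 and 0 (all genes: 8.28%, 6.95% and 7.6%), and against the Sigma control 1, 0 and 1 (7.31%, 6.54% and 7.62%). With the Ambion siRNA they were 1, 1 and 1 (4.3%, 3.35% and 4.18%), and with the Dharmacon siRNA 0, 0 and 1 (8.74%, 8.66% and 10%). MRPL48, a mitochondria-specific large subunit protein, was the gene lower with the Ambion siRNA, by log2 differences of -0.34, -0.40 and -0.32 (adjusted p = 0.00521, 0.00132 and 0.00809), and the gene lower against the Dharmacon control at 0 h (-0.30, adjusted p = 0.00815). MRPS27, a small subunit protein with pentatricopeptide repeats, was lower at 8 h against the Sigma control (-0.39, adjusted p = 0.000599) and with the Dharmacon siRNA (-0.26, adjusted p = 0.0186). MRPS16 was lower against the Sigma control at 0 h (-0.24, adjusted p = 0.0123). The difference between these counts was not tested, and all of them rest on arrays that they share.

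Of the 10 genes called at 8 h, 5 passed with either NFYB siRNA alone and against either control alone: MRPL12, MRPL18, MRPL23, MRPL35 and MRPS12. For MRPL18 the 3 arrays at 8 h were 969, 836 and 907 with the Dharmacon control, 1371, 1253 and 1299 with the Sigma control, 2034, 2058 and 2096 with the Ambion NFYB siRNA and 2019, 2090 and 1863 with the Dharmacon NFYB siRNA. Every NFYB siRNA array lay above every control array. The log2 difference was 1.17 against the Dharmacon and 0.63 against the Sigma control. For MRPL12 it was 0.93 and 0.44. MRPL23 at 4 h turned from 0.59 against the Dharmacon control to -0.07 against the Sigma control, and only the first passed. MRPL57 (adjusted p = 0.108) and MRPS11 (adjusted p = 0.0514) were not called with the Ambion siRNA, MRPS10 (adjusted p = 0.152) was not called with the Dharmacon NFYB siRNA, and MRPL58 (adjusted p = 0.0921) was not called against the Sigma control. MRPL39 passed in 2 of the 4 comparisons.

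**Figure D2:**
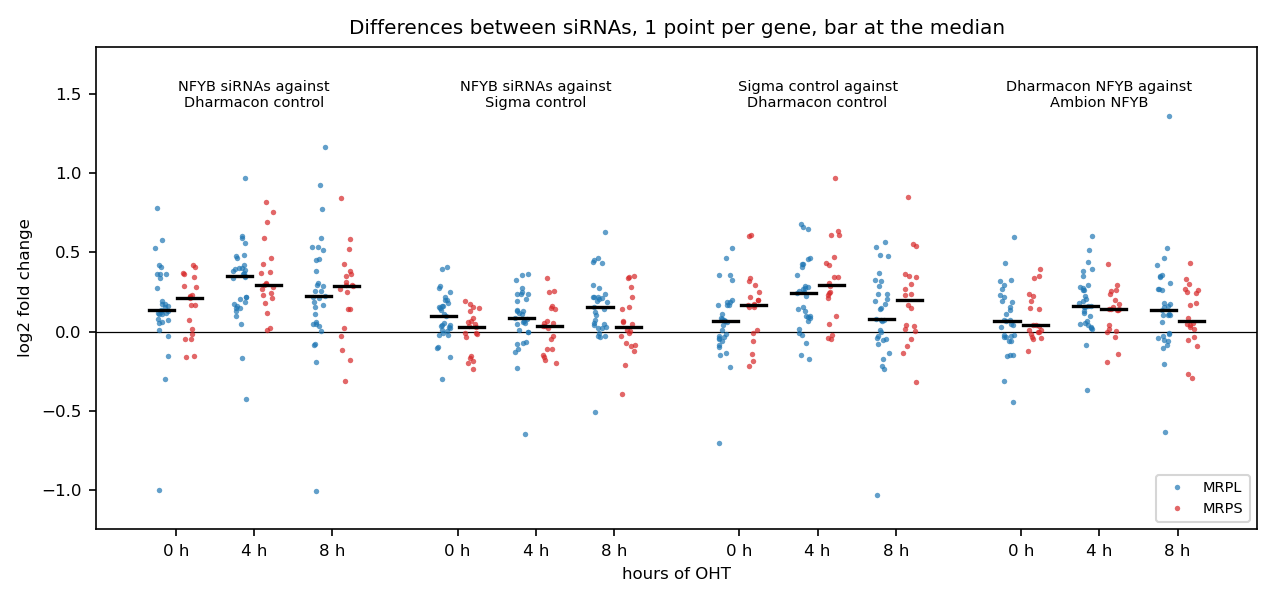
Log2 difference of each of the 51 genes at 0, 4 and 8 h (points, blue MRPL and red MRPS, bars at the median of each subunit) for NFYB siRNA against each control, Sigma against Dharmacon control, and Dharmacon against Ambion NFYB siRNA. At 4 h the medians over all 51 genes are 0.34 against the Dharmacon control, 0.06 against the Sigma control and 0.25 between the controls.

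Large and small subunit genes are described side by side. At 8 h with control siRNA, 25 of 31 MRPL genes were lower and 1 higher (median log2 change -0.56), and 18 of 20 MRPS genes were lower (median -0.62). With NFYB siRNA the counts were 24 lower and 1 higher of 31 (median -0.47) and 17 lower of 20 (median -0.54). With NFYB siRNA against control siRNA, 7 MRPL and 3 MRPS genes were higher at 8 h, 4 and 2 at 4 h, and 3 and 1 at 0 h, and the medians at 8 h were both 0.18. The Sigma control was higher than the Dharmacon control for 15 MRPL and 12 MRPS genes (medians 0.12 and 0.21). With MRPS18A and MRPS30 counted with the large subunit, where their proteins sit, the 8 h medians with control siRNA were -0.56 and -0.62. On each array the mean log2 signal of the MRPL genes was also set against that of the MRPS genes, a quantity whose change alone can be read. It went from -0.09 ± 0.06 at 0 h to 0.02 ± 0.06 at 8 h with control siRNA (SD, n = 6) and from -0.05 ± 0.04 to 0.08 ± 0.05 with NFYB siRNA. The controls differed in it, with means of -0.04 and 0.07 at 0 and 8 h for the Dharmacon control and -0.14 and -0.03 for the Sigma control. For the Ambion NFYB siRNA they were -0.04 and 0.05, and for the Dharmacon NFYB siRNA -0.06 and 0.11. No difference between the subunits was tested.

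By origin, 7 of 31 conserved genes (median log2 difference 0.22) and 1 of the 18 genes listed as mitochondria-specific (median 0.13) were higher with NFYB siRNA at 8 h. MRPL57 and MRPL58, the remaining genes called, were placed in neither class by the lists used, so the counts by class leave them out. The difference between the classes was not tested. Of the 10 genes called, 8 have a promoter window. CCAAT was found in those of MRPL18 and MRPS12, the E2F motif in MRPL18 and MRPL58, the ETS motif in 4 and the YY1 motif in MRPS10. Of the 41 genes not called, 37 have a window, and these held CCAAT in 12, the E2F motif in 7, the ETS motif in 15 and the YY1 motif in 7. Counted by gene rather than by window, CCAAT was found in 39.7% of all genes with a window. The E2F motif was in 8.23% of them, the ETS motif in 12.2% and the YY1 motif in 2.135%.

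Of the 51 genes, 10 had more than 1 probe set, which left 13 further probe sets. At 8 h with control siRNA all 13 had the sign of the probe set used and 11 were called. For NFYB siRNA at 8 h, 9 of 13 had the same sign and 1 was called, against the direction of that used: MRPS14 read -0.59 on its dimmer probe set (adjusted p = 0.0448) and 0.03 on the brighter. MRPS12 has 3 further probe sets, all dim, which read -0.56, 0.13 and -0.28 at 8 h without passing, so that the call for MRPS12 rests on its brightest probe set. For the 8 h change with control siRNA the same 3 gave -1.45, -0.76 and -0.52, each called lower.

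Other genes of mitochondrial gene expression were counted from fixed lists. Of all genes, 34.3% were lower and 21.1% higher at 8 h than at 0 h with control siRNA. With NFYB siRNA against control siRNA at 8 h, 2.71% of all genes were higher and 2.57% lower. Of 3 mitoribosomal proteins under other symbols (DAP3, GADD45GIP1 and PTCD3), 3 were lower at 8 h with control siRNA and 0 changed with NFYB siRNA. Of 14 assembly factors 8 were lower and 1 higher (median log2 change -0.32), and 0 passed for NFYB siRNA at 8 h. Of 10 translation factors 5 were lower, among them LRPPRC (-1.11), which stabilises mitochondrial messenger RNAs, and 1 was higher with NFYB siRNA, its partner SLIRP (0.47, adjusted p = 0.00774). Of 10 mitochondrial tRNA synthetases 7 were lower (median -0.91), among them HARS2 (-1.48), and 1, IARS2, was higher with NFYB siRNA (0.19, adjusted p = 0.0417). Of 9 genes for transcription and replication of mitochondrial DNA 8 were lower (median -0.71), among them POLG2 (-1.77) and the helicase TWNK (-1.49), and 1 was higher with NFYB siRNA, TFAM, the packaging factor of mitochondrial DNA (0.62, adjusted p = 0.0114).

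Of 8 nuclear regulators of mitochondrial genes 3 were higher at 8 h with control siRNA, GABPB1 (1.31), YY1 (1.29) and ESRRA (0.32), and 4 were lower, MYC (-1.03), PPRC1 (-0.82), NRF1 (-0.50) and GABPA (-0.37). With NFYB siRNA at 8 h 1 of the 8 was lower, GABPB1 (-0.29, adjusted p = 0.0157). Of 73 nuclear genes for respiratory chain and ATP synthase subunits and their assembly, 58 were lower and 2 higher at 8 h with control siRNA (median -0.45), and 22 were higher with NFYB siRNA (median 0.20). For 58 cytosolic ribosomal protein genes 43 were lower with control siRNA (median -0.26), 6 were lower with NFYB siRNA over the same time (median -0.09), and 3 were higher with NFYB siRNA at 8 h. Of all genes 34.3% were lower with control siRNA, 33.7% were lower with NFYB siRNA over the same time, and 2.71% were higher with NFYB siRNA at 8 h. The difference of the 8 h responses is not given for these lists, and a missing call in an arm does not show that the arms differ. No test was made between these lists and the mitochondrial ribosomal protein genes.

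Several of these genes have a gene on the opposite strand starting close upstream, and whether the pair shares a promoter was not tested. Of the 51, 16 have such a neighbour starting within 1000 bases upstream, and for 9 it was measured by a probe set naming 1 gene. At 8 h with control siRNA 34.3% of all genes were lower and 21.1% higher, so a shared direction can arise without a link. HIRA, a histone chaperone gene beside MRPL40, was higher at 8 h with control siRNA (log2 change 1.35, adjusted p = 1.72e-17) and with NFYB siRNA (1.27), in the direction of MRPL40. SARS2, the mitochondrial seryl-tRNA synthetase gene beside MRPS12, was lower with control siRNA (-0.70) and did not pass for NFYB siRNA (0.14, adjusted p = 0.583). At 8 h with control siRNA PTCD2 was lower beside MRPS27 (-1.70), GGA3 beside MRPS7 (-0.99) and PPP1R10 beside MRPS18B (-0.43), members that were lower too. FAU was lower (-0.22, adjusted p = 0.0389) beside MRPL49, which did not pass (-0.05), and PIERCE1 was higher (0.60, adjusted p = 0.0469) beside MRPS2, which did not pass (0.03). MRPL46 and MRPS11, which neighbour each other, were both lower at 8 h with control siRNA (-0.85 and -0.73), and for NFYB siRNA MRPS11 passed and MRPL46 did not (0.15, adjusted p = 0.453). The neighbour of MRPL18, TCP1, had no probe set naming it alone.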

How the data were processed

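RNA from the 36 samples was hybridised to Affymetrix U133A 2.0 arrays. The deposited values are signal intensities per probe set on a linear scale, made by the authors with MAS5 in Affymetrix Expression Console (version not given in the sources used here) and scaled to a 2% trimmed mean of 500 on each array. MAS5 subtracts a mismatch estimate, so dim probe sets are noisy, and no detection calls were used. Precision is limited by the number of arrays.

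Of 22277 probe sets, 62 controls were left out and 22215 tested, of which 19064 named 1 gene, 1043 several and 2108 none in the platform annotation, and 1 was left out of the gene set for naming several. All 51 genes matched RefSeq by gene ID with the same symbol. Log2 intensities, with no offset and no filter, entered linear models (limma 3.58.1, R 4.3.3, empirical Bayes with a variance trend, two-sided), as 6 groups of arm by time. Comparisons of single siRNAs used 12 groups of siRNA by time. P-values were adjusted by Benjamini-Hochberg over all probe sets tested, and a gene was called at an adjusted p under 0.05. Fold changes are ratios of geometric means. Shares of all genes were taken over 11963 genes with the brightest probe set of each. Samples were grouped by their labels. Replicates are biological per the methods, and their numbers did not pair arrays across groups (mean correlation of same-numbered deviations 0.0135, range -0.187 to 0.288, other numbers -0.0068).

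Genes were named by a rule: those called where at most 12 were called and otherwise the 10 with the smallest adjusted p in each direction, the 3 greatest changes each way, the 5 first for siRNA comparisons, the 3 brightest and 3 dimmest, and the 3 in the study's knockdown list. Genes of other lists, neighbours, MRPS17, MRPL28 and the genes lower in single-siRNA comparisons were named after their values were seen. The members, gene lists and tests were chosen with earlier results of these data known. Results were recomputed with quantile normalization, an offset of 16, no trend, a filter keeping the 60% brightest probe sets, other groupings, blocks, single siRNAs, the mean of a gene's probe sets, the methods' t-test and leaving out arrays. The fit was tested on simulated data. Promoter sequences came from RefSeq (GRCh38.p14).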

Additional observations from a re-analysis of the deposited data

Results flagged for a closer look

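The MRPL18 signal of Dharmacon NFYB siRNA replicate 3 at 8 h was 1863, below the other 5 arrays of its group, the nearest of which was at 2019. The gap was 0.68 of the range of the 6 arrays on the log2 scale. The critical value of Dixon's test for a group of 6 was exceeded. Without this array the 8 h log2 difference for MRPL18 was 0.92 (limma adjusted p = 1.03e-05). Of 54 groups of 6 arrays examined, for the 9 genes shown by array, this was the only such array, and chance alone gives about 1 in 20 groups.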

How the results depend on the processing

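The counts of genes lower or higher after OHT and between siRNAs of an arm stayed within 1.5 times under every alternative run, and those for NFYB siRNA did not. For NFYB siRNA at 0 h (4 genes), 1 was called from the compared groups alone, 2 with siRNA as a random block, 16 from 12 groups, 7 with the Ambion and 17 with the Dharmacon NFYB siRNA alone, 20 against the Dharmacon control alone, and 0 by the methods' t-test, with Benjamini-Hochberg adjustment or at the study's thresholds. At 4 h (6 genes), the numbers were 3 from the compared groups alone, 25 from 12 groups, 30 with the Dharmacon NFYB siRNA, 30 against the Dharmacon control and 0 by either form of the t-test. At 8 h (10 genes), they were 23 from 12 groups, 27 with the Dharmacon NFYB siRNA, 23 against the Dharmacon control and 5 by either form of the t-test. For the difference of the 8 h responses (0 genes), 12 groups gave 2, a random block 2, the Ambion siRNA 1, the Dharmacon NFYB siRNA 4, the Dharmacon control 2 and the Sigma control 1. Of all genes 0.293% passed for this difference in the main fit and 1.71% from 12 groups. For NFYB siRNA at each time, shares of all genes from 12 groups, single siRNAs and the adjusted t-test are given above. Shares for the other settings are not given, so the moving counts are not read as particular to these genes. Fewer arrays or another grouping enter these fits by construction, and the cause was otherwise not tested. Leaving out a replicate number or an array gave 0 to 4 genes at 0 h, 1 to 7 at 4 h and 2 to 11 at 8 h. For control siRNA it gave 30 to 43 at 4 h and 38 to 45 at 8 h, for NFYB siRNA 37 to 43 at 8 h, and 21 to 28 and 13 to 20 between the controls and between the NFYB siRNAs. With the replicate number as a block, which pairs nothing here, the counts were 3, 5 and 10 for NFYB siRNA at 0, 4 and 8 h, 43 and 44 for control siRNA at 4 and 8 h, and 42 for NFYB siRNA at 8 h. Shares of all genes are not given for the block, nor for the leave-out ranges after OHT and between siRNAs. Those counts are likewise not read as particular to these genes. Signs turned for MRPS12, which had been called, and for values that had not. MRPS12 for NFYB siRNA at 8 h, at 0.436, became -0.069 on the mean of its 4 probe sets. With the Dharmacon NFYB siRNA alone, MRPL12 at 0 h was 0.002, MRPL48 at 4 h 0.001 and MRPL41 at 8 h, at -0.487, was 0.194, and against the Sigma control alone MRPL41 at 8 h was 0.031 and MRPL23 at 4 h, at 0.26, was -0.071. MRPS35 at 4 h, at -0.005, turned to 0.005 with quantile normalization, 0.091 with the Ambion siRNA and 0.02 against the Dharmacon control, ranged from -0.106 without replicate 3 to 0.152 without replicate 2, and was 0.086, 0.05, 0.056 and 0.023 without Dharmacon control replicate 2, Sigma control replicate 1, Dharmacon NFYB replicate 2 and 3. MRPL41 at 4 h of OHT, at 0.347, was -0.115 with the Dharmacon control. MRPS2 at 8 h of OHT was -0.041 with the Sigma control, ranged from -0.035 without replicate 2 to 0.087 without replicate 1, and was -0.028 without Dharmacon control replicate 3 at 0 h. In the difference of the 8 h responses, MRPL19 was 0.035 with the Ambion siRNA, and MRPL44 ranged from -0.385 without replicate 3 to 0.032 without Dharmacon NFYB replicate 2 at 8 h. MRPL41, MRPL44 and MRPS18C were dim throughout, which limits what their values can show.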
